A study of Mus musculus with 4 samples.

Results

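Cycling myeloid antigen-presenting cells were selected on their own transcripts: at least 5 UMIs of Top2a plus Mki67, at least 20 UMIs of H2-Ab1 and at most 2 UMIs of Cd3e, Cd3g and Cd3d together, in cells with at least 1000 UMIs and at most 15% mitochondrial UMIs. A unique molecular identifier (UMI) marks one captured transcript. In all, 419 of the 14795 deposited cells met the rule, out of 13124 that passed the depth and mitochondrial filters. Top2a (topoisomerase II alpha) and Mki67 are transcribed in cells that copy and divide their genome, H2-Ab1 encodes the beta chain of the MHC class II molecule I-A, and the Cd3 genes encode the T cell receptor complex. Because these values chose the cells, they are given as a description only.

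Immune cells (CD45+, viable) were sorted from the skin of C57/BL6 mice without tumor ("control skin", 2 libraries) and from subcutaneous tumors that grew in C57/BL6 mice after injection of the 2323 cell line ("skin tumor", 2 libraries), and their 3′ transcripts were counted in droplets. The 2323 line came from a mouse epidermal tumor with p53 loss, from a model driven in keratin 14-expressing keratinocytes, so both tumors stand for 1 line and carry its changes in the tumor cells, not in the sorted immune cells of the host. The libraries held 50932896 and 52784293 UMIs in control skin and 73904272 and 34893543 in skin tumor. The labels give no sex or age, and the study's methods name young adult mice of both sexes for the injections without assigning them to libraries. The 4 libraries came from separate skins and separate tumors, and p-values measure the spread between these 4 samples.

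Myeloid cells that present antigen on MHC class II in skin belong to several lineages. Langerhans cells sit in the epidermis, carry langerin (Cd207), depend on the receptor Csf1r and are known to renew themselves by division within the tissue. Conventional dendritic cells come from dividing marrow precursors: type 1 cells carry the chemokine receptor Xcr1 and present antigen to CD8 T cells, and type 2 cells carry the lectin Cd209a in skin and present mainly to CD4 T cells. Macrophages depend on Csf1r and can either arise from blood monocytes or divide in place. Each cell was therefore assigned to the first class whose gene reached its minimum, in the order Xcr1 (2 UMIs), Cd207 (5), Cd209a (3) and Csf1r (3), since type 1 dendritic cells of the dermis also carry Cd207 and Langerhans cells also carry Csf1r.

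The gate held 48 and 61 cells in the control libraries, and 257 and 53 in the tumor libraries. Their Top2a plus Mki67 UMIs had a median of 18 and reached 130. Of the 419 cells, 78 lay just inside the threshold with 5 or 6 UMIs, while 189 MHC II-high CD3-low cells lay just outside with 3 or 4. For H2-Ab1, 12 cells had 20 to 29 UMIs and 17 cycling CD3-low cells with 10 to 19 were left out. The median H2-Ab1 count was 351.5 and 310 in control skin and 164 and 180 in skin tumor. The cells were deeper than other MHC II-high CD3-low cells: the median was 34313.5, 34194, 31635 and 33133 UMIs per cell (control skin 1 and 2, skin tumor 1 and 2) against 17991, 17970, 18337 and 18698.5 in the non-cycling cells. The limit on Cd3 left out 218 cycling cells with at least 20 H2-Ab1 UMIs, 76 and 85 of them in control skin, which is more than the gate kept there, and 26 and 31 in skin tumor. A doublet score marked 1, 1, 21 and 0 of the gated cells.

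The label "myeloid" was checked against the markers of other cells. Summed over the gated cells of a library, the T cell list (Cd3e, Cd3g, Cd3d, Trac, Trdc, Thy1) reached 24.8 and 31.2 CPM (UMIs scaled to a common library total) in control skin and 2.62 and 11 CPM in skin tumor, where the gate itself limited its 3 Cd3 genes. The 5 genes of the B cell list summed to between 1.69 and 11.8 CPM, and Cd79a and Pax5 were at 0 in both control libraries. Neither the plasma cell nor the fibroblast list exceeded 3.15 CPM. The natural killer cell list held 0 to 9.68 CPM, the mast cell list 17.2 to 30.2 CPM, led by Kit, and the endothelial list 11.4 to 40.2 CPM, nearly all Pecam1. Most of the innate lymphoid (ILC2) list sum, 203, 130, 32.8 and 120 CPM, was Rora, while the cytokine genes Il5 and Il13 were at 0 in both tumor libraries. Skin tumor 2 stood apart with 346 CPM of the neutrophil list, led by S100a9 at 178 CPM, against 6.20, 35.6 and 46.6 CPM in the others. Keratinocyte genes (Krt14, Krt5, Krt15, Dsp) summed to 36.6 and 88.0 CPM in control skin, to 0.119 CPM in skin tumor 1 and to 0 in skin tumor 2. The part of these transcripts in the results below was not tested. Libraries shared 23 cell barcodes over 6 pairs of libraries, and 1 of them belonged to a gated cell.

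Cd207+ cells, the class of Langerhans cells, were the most numerous of the gated cells in control skin, and Csf1r+ cells were the most numerous of those in skin tumor. In control skin 24 of 48 and 34 of 61 gated cells were Cd207+, against 1 of 257 and 0 of 53 in skin tumor, where a count of 0 allows up to 6.72% (exact binomial interval, counting error only). Csf1r+ cells numbered 7 of 48 and 9 of 61 in control skin and 162 of 257 and 37 of 53 in skin tumor. As shares these were 52.9% ± 4.06 against 0.195% ± 0.275 for Cd207+ and 14.7% ± 0.121 against 66.4% ± 4.79 for Csf1r+ (SD, n = 2). For both, the groups did not overlap, with an exact permutation p of 0.333 (two-sided, the smallest that 2 against 2 can give, 0.833 after Benjamini-Hochberg adjustment over 5 classes).

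Cells of both dendritic cell classes, as set by Xcr1 and Cd209a, were among the gated cells of both tissues. Xcr1+ cells were 8, 8, 45 and 6 in number, or 14.9% ± 2.51 in control skin and 14.4% ± 4.38 in skin tumor. Cd209a+ cells were 5, 7, 19 and 7, or 10.9% ± 0.749 and 10.3% ± 4.11. Another 4, 3, 30 and 3 cells reached none of the 4 minimums. The groups overlapped for each of these 3 shares (exact permutation p = 1, 1 and 0.667, n = 2). The Xcr1+ and Cd209a+ values depended on how classes were set. By summed marker lists, the type 1 dendritic cell class was 16.5% of the gated cells in control skin and 30.0% in skin tumor. The type 2 class was then 23.6% and 25.5%, and the macrophage class 5.74% and 44.5%.

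**Figure D1:**
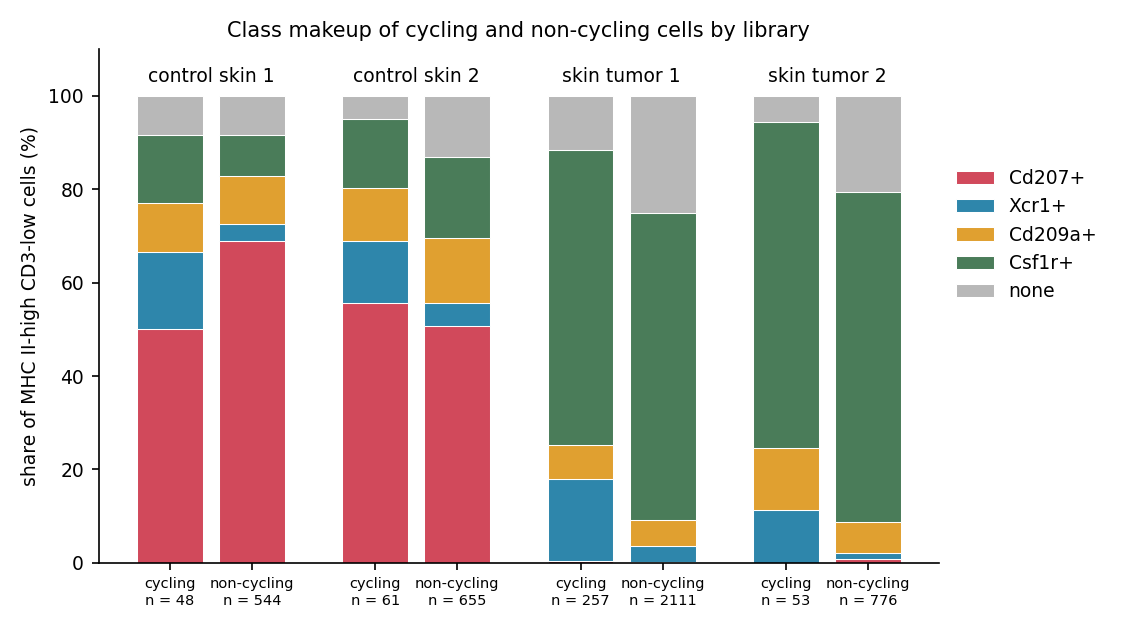
Share (%) of each class among the cycling and the non-cycling MHC II-high CD3-low cells of each library, with the number of cells (n) under each bar. Cd207+ cells (red) fill between 50.0% and 68.9% of each bar in control skin and under 1% in skin tumor, while the Xcr1+ band (blue) is wider in the cycling bar of every library.

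Csf1r alone did not separate the lineages. Among control skin members, 58 of the 68 cells at the Cd207 minimum also reached the Csf1r minimum, and 10 of the 16 Xcr1+ cells reached that of Cd207. If Csf1r is read first, Csf1r+ cells make up 71.4% of the gated cells in control skin and 72.2% in skin tumor. The Csf1r minimum was also reached by 7 of the 16 Xcr1+ cells and 9 of the 18 cells at the Cd209a minimum in control skin. In skin tumor, 16 of 51 Xcr1+ cells and 5 of the 27 cells at the Cd209a minimum reached it as well. CD3-high cells had at least 5 Cd3 UMIs and fewer than 5 of H2-Ab1. They should lack all 4 genes, held fewer UMIs (median 8905 to 10752) and gave a background from free RNA. The share at a minimum lay between 0% and 1.5% for any gene and library. Since cells with more H2-Ab1 were left out beforehand, these shares can understate the background. By the summed marker lists, 54 of 59 Cd207+, 58 of 67 Xcr1+ and 30 of 38 Cd209a+ cells fell in the same lineage. Of the 215 Csf1r+ cells, 139 did so, and 41 came closest to the type 2 and 35 to the type 1 dendritic cell list.

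Other lineage markers differed in how far they followed the classes. Cd207+ members of control skin held Cldn1 (claudin 1) at 911 and 825 CPM, Epcam (an adhesion molecule) at 501 and 489 CPM and Cdh1 (E-cadherin) at 251 and 233 CPM, all markers of Langerhans cells. Xcr1+ members of control skin carried them too, with Cldn1 at 491 and 180 CPM and Epcam at 381 and 59.9 CPM, and Cd24a, also on the Langerhans cell list, overlapped between Cd207+ members (123 and 120 CPM) and Xcr1+ ones (110 and 207 CPM). Cd207+ members of control skin had Cd207 counts from 10 to 426 UMIs a cell. Xcr1+ members held Irf8, the transcription factor that type 1 dendritic cells require, at 483, 779, 801 and 1025 CPM in the 4 libraries, and Clec9a, a receptor for dead cells, at 66.3, 106, 128 and 177 CPM, each above the Cd209a+ and Csf1r+ members of the same library. The Cd207 level of Xcr1+ members was 900 and 923 CPM in control skin but 2.29 and 0 CPM in skin tumor. Cd209a+ members held Mgl2, a lectin of type 2 dendritic cells, at 564, 635, 824 and 602 CPM, and Ccr2, a chemokine receptor of monocyte-derived and dendritic cells, at 262, 240, 204 and 307 CPM. Neither was particular to that class, since Csf1r+ members held Mgl2 at 637, 249, 247 and 310 CPM and Ccr2 at 186, 281, 268 and 217 CPM. Csf1r+ members held the complement gene C1qa at 379, 1502, 2937 and 2135 CPM and Mrc1, the mannose receptor, at 220, 1313, 711 and 772 CPM. Mrc1 was also high in Cd209a+ members of control skin (798 and 1007 CPM), and C1qa stood at 859 and 957 CPM in Xcr1+ members of skin tumor. In Csf1r+ members both stood lowest in the 7 cells of control skin 1, and Apoe, a lipid carrier abundant in macrophages, was at 27.1 CPM there against 3502 to 5755 CPM elsewhere.

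Relative to all cells of their class, Xcr1+ cells, when classes were set by single genes, were in the cycling gate more often than Cd209a+ or Csf1r+ cells. Cycling cells made up 8 of 28 and 8 of 41 Xcr1+ cells in control skin and 45 of 116 and 6 of 16 in skin tumor, that is 28.6%, 19.5%, 38.8% and 37.5%. For Csf1r+ cells the numbers were 7 of 55, 9 of 122, 162 of 1547 and 37 of 587, or 12.7%, 7.38%, 10.5% and 6.30%. For Cd209a+ cells they were 5 of 61, 7 of 98, 19 of 138 and 7 of 58, or 8.20%, 7.14%, 13.8% and 12.1%. The Xcr1+ share was above the Csf1r+ share in 4 of 4 libraries, by 21.9 percentage points ± 9.30 (SD of the difference, n = 4), with an exact paired permutation p of 0.125, the smallest that 4 libraries can give. Xcr1+ also exceeded Cd209a+ in 4 of 4 (20.8 percentage points ± 6.07, exact p = 0.125), whereas Cd209a+ and Csf1r+ differed by 1.07 percentage points ± 4.47 (exact p = 0.75). These 3 pairs were all that were compared. Depth differed between the classes: the pooled median was 26070.5 UMIs in non-cycling Xcr1+ cells and 20523 in non-cycling Csf1r+ cells. Each cell was also thinned to 5000 UMIs, with 710, 697, 984 and 419 shallower cells left out. The gate was then at least 2 UMIs of Top2a plus Mki67, at least 5 of H2-Ab1 and no Cd3 UMI. Every class minimum was 1 UMI, so the classes changed along with the depth. The shares were 19% ± 5.71 for Xcr1+ and 6.93% ± 0.999 for Csf1r+, with Xcr1+ again higher in 4 of 4 libraries. The lead was smaller when cells were put in classes by the summed marker lists, a repeat chosen after the data had been seen. The type 1 dendritic cell class then had 8 of 55, 10 of 64, 91 of 616 and 13 of 195 cells in the gate, or 14.5%, 15.6%, 14.8% and 6.67%. That class was wider than Xcr1+. By single genes its gated cells were 58 Xcr1+, 35 Csf1r+, 8 Cd209a+, 1 Cd207+ and 20 at none of the minimums. The macrophage class had 0%, 7.53%, 10.0% and 6.40% and the type 2 dendritic cell class 12.2%, 5.37%, 8.24% and 6.32%. The type 1 share was higher in 4 of 4 libraries, by 6.91 percentage points ± 6.01 over the macrophage class and 4.88 ± 4.41 over the type 2 class (exact p = 0.125 for both), but in skin tumor 2 the 3 classes lay between 6.32% and 6.67%.

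Within the class, the share of cycling Xcr1+ cells was 24.0% ± 6.41 in control skin and 38.1% ± 0.914 in skin tumor, and that of Cd209a+ cells 7.67% ± 0.745 and 12.9% ± 1.20 (SD, n = 2). The groups did not overlap in either case (exact permutation p = 0.333, the smallest possible, adjusted 0.833). Neither direction held when classes were set by marker lists: the share was then 15.1% in control skin and 10.7% in skin tumor for the type 1 class, and 8.77% and 7.28% for the type 2 class. With a class minimum of 1 UMI for each gene, the Xcr1+ shares were 24.7% and 28.9%. With a minimum of 10 UMIs of Top2a plus Mki67 the Cd209a+ shares were 7.16% and 7.30%. Csf1r+ cells cycled at 10.1% ± 3.78 and 8.39% ± 2.95, with overlap (exact p = 0.667). Cd207+ cells of control skin cycled at 6.02% (24 of 399) and 9.29% (34 of 366), and skin tumor held too few Cd207+ cells, 6 in each library, to set beside them. The makeup of the non-cycling cells differed in the same direction: Cd207+ cells were 59.8% of the non-cycling cells in control skin and 0.505% in skin tumor, and Csf1r+ cells 13% and 68.2%. By the marker lists, 388 and 354 cells of control skin and 3 and 5 of skin tumor, cycling or not, fell in the Langerhans cell class.

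**Figure D2:**
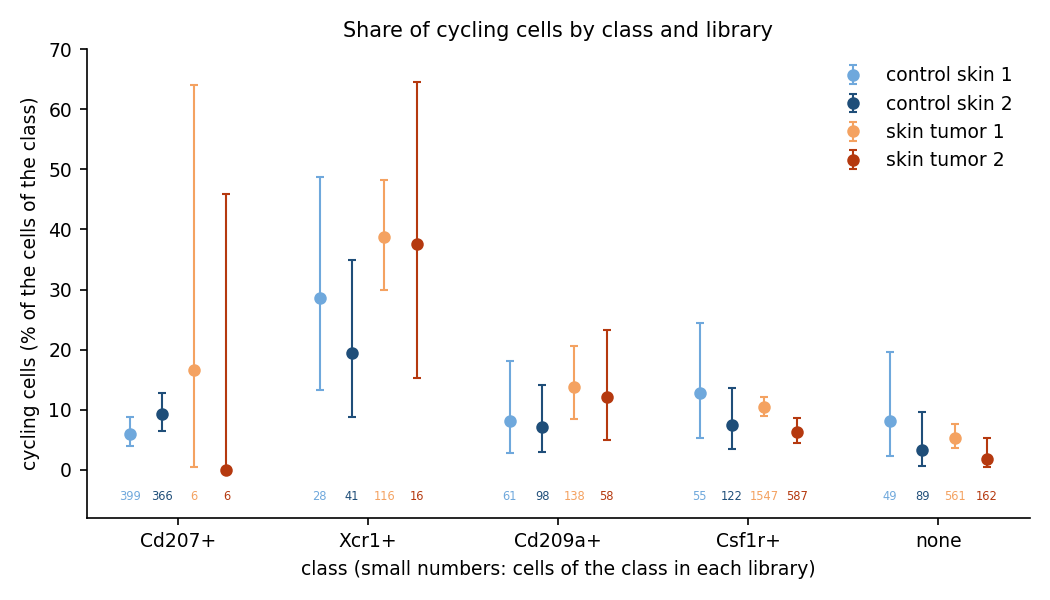
Cycling cells as a share (%) of all MHC II-high CD3-low cells of a class, per library, with 95% Clopper-Pearson intervals, which cover counting error only. The Xcr1+ points, from 19.5% to 38.8%, stand above the Cd209a+ and Csf1r+ points of the same library.

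As a share of all filtered cells the gate held 1.54% and 1.91% in control skin and 5.34% and 2.64% in skin tumor, or 1.73% ± 0.262 against 3.99% ± 1.91 (exact p = 0.333, n = 2). As a share of MHC II-high CD3-low cells it held 8.11% and 8.52% against 10.9% and 6.39%, and the groups overlapped (exact p = 1). Both shares depended on whether Cd3 was limited. In the gate used they differed by 2.26 and 0.309 percentage points (skin tumor minus control skin). With a Cd3 maximum of 0 UMIs they differed by 2.46 and 1.12. With a maximum of 10, chosen after the data had been seen, they differed by 2.48 and 0.59. With no limit, also chosen then, the share of filtered cells was 3.98% and 4.58% against 5.88% and 4.19%, so that the groups overlapped. The share of MHC II-high cells was then 13.03% and 13.3% against 11.6% and 8.48%, lower in both tumor libraries. MHC II-high CD3-low cells numbered 592 and 716 in control skin and 2368 and 829 in skin tumor. CD3-high cells, given for comparison, were cycling in 7.02% and 7.5% of cases in control skin and in 26.2% and 11.6% in skin tumor.

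Cell division runs through a G1 phase set by cyclin D and cyclin E, an S phase in which the DNA is copied, and a G2/M phase in which it is divided. Outside the 2 genes that chose the cells, 18 S phase and 22 G2/M genes were followed. Every one of the 22 G2/M genes was higher in cycling than in non-cycling cells in all libraries compared, in each of 3 classes: Csf1r+ (the 2 tumor libraries), Cd207+ (the 2 control libraries) and Xcr1+ (all 4). The median log2 ratio over the list was 3.75, 4.15 and 3.87. S phase genes were higher throughout in 18, 16 and 13 of 18. Among all genes, 40.8%, 42.8% and 14.8% were higher in all the libraries compared and 26.4%, 25.2% and 7.63% were lower in all. Since the gate used this contrast, no test was made. Cenpf (a kinetochore protein) stood at 64.9 CPM in cycling Csf1r+ cells against 1.53 CPM in non-cycling ones, Ube2c (which marks cyclins for breakdown) at 119 against 2.82 CPM, and Rrm2 (ribonucleotide reductase, which makes DNA precursors) at 65.4 against 1.75 CPM.

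Of the G1 genes, the cyclin D genes did not follow the G2/M genes. In cycling Cd207+ cells of control skin, Ccnd1, Ccnd2 and Ccnd3 were lower than in non-cycling ones in both libraries (mean log2 ratio -0.53, -1.83 and -0.40, with Ccnd2 at 4.11 against 13.8 CPM). In Xcr1+ cells Ccnd1 (-0.16) and Ccnd2 (-1.21) were lower in all 4 libraries, though the highest Ccnd2 ratio was -6.4e-05. Ccnd3 went both ways there, from -0.47 to 0.45 (mean -0.01). In Csf1r+ cells of skin tumor each of the 3 cyclin D genes was higher in 1 library and lower in the other (mean log2 ratio 0.23, 0.19 and 0.13). Cdk4, their partner kinase, was higher in every library compared in all 3 classes (0.93, 0.94 and 1.17 in Csf1r+, Cd207+ and Xcr1+ cells), as were the S phase activators E2f1 (1.39, 0.79 and 1.57) and E2f2 (1.42, 1.40 and 1.52). Of 10 MHC class II genes other than H2-Ab1, 6, 7 and 5 were lower in all libraries compared in the 3 classes: H2-Aa, H2-Eb1, Cd74 (the invariant chain) and Ciita (the class II transactivator) were among them in all 3 classes, with mean log2 ratios from -0.10 to -0.60.

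Because many of these genes move together, their promoters were read from RefSeq (build GRCm38.p6, from 250 bases before to 50 after the start). The letters TTTGAA, the core of the cell cycle homology element that the DREAM complex reads, and CCAAT, the NF-Y box, were searched on both strands (the reverse reads TTCAAA and ATTGG). With Top2a and Mki67 added to the G2/M list, 20 of its 24 genes had a window. Of these, 15 (75.0%) held TTTGAA and 18 (90.0%) held CCAAT, and 15 held both, against 20.2%, 41.1% and 7.97% of all 27025 genes. Of the S phase list, 16 of 18 genes had a window, and 1 held TTTGAA and 10 held CCAAT (6.25% and 62.5%). A match is a description of the letters, and binding was not measured. The windows of Top2a, of the mitotic cyclin gene Ccnb2 and of the mitotic kinase gene Cdk1 are shown as examples with matches of both kinds in capitals, each on the minus strand (Top2a at chr11:99024140-99024439, Ccnb2 at chr9:70421505-70421804, Cdk1 at chr10:69352863-69353162).
Top2a: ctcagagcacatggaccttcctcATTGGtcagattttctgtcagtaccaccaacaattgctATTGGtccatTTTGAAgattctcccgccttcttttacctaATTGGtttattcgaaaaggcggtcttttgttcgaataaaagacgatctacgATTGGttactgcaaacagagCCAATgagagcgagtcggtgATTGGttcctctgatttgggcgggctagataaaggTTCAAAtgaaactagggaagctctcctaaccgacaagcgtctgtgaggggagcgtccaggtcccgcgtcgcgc
Ccnb2: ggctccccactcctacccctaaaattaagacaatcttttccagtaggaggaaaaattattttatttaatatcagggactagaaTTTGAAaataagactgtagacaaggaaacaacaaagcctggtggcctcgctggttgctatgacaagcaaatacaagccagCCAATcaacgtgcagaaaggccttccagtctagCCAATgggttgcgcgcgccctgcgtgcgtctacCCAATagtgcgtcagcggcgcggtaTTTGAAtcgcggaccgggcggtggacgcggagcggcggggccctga
Cdk1: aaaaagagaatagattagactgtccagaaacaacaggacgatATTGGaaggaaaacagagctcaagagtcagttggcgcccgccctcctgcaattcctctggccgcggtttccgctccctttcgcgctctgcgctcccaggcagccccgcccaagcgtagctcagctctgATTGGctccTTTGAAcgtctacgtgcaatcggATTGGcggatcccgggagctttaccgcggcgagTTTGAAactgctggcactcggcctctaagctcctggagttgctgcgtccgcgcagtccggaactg

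Dividing cells of both tissues spanned S and G2/M. In cells thinned to 10000 UMIs, the 18 S phase genes gave a mean of 6.58 and 7.95 UMIs a cell in control skin and 12.3 and 9.75 in skin tumor. The 22 G2/M genes gave 9.93 and 14.7 against 16.0 and 12.3. The S phase means did not overlap between the groups (7.26 ± 0.971 against 11 ± 1.82, exact permutation p = 0.333, n = 2, the smallest possible) and the G2/M means did (exact p = 0.667). More G2/M than S phase UMIs were found in 25 of 45, 38 of 61, 130 of 254 and 22 of 53 cells, or 55.6%, 62.3%, 51.2% and 41.5%. By class, Cd207+ cells of control skin stood to the G2/M side, with 62.5% and 73.5% of cells, while Csf1r+ cells of the same libraries stood to the S side, with 28.6% (2 of 7) and 33.3% (3 of 9). In skin tumor, Csf1r+ cells stood at 58.4% and 37.8%. The tumor libraries also stood apart from each other in Xcr1+ cells: the 45 cells of skin tumor 1 had a mean of 18 S phase and 14.2 G2/M UMIs, with 35.6% of them to the G2/M side, and the 6 cells of skin tumor 2 had 11 and 30.3, with 66.7%.

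**Figure D3:**
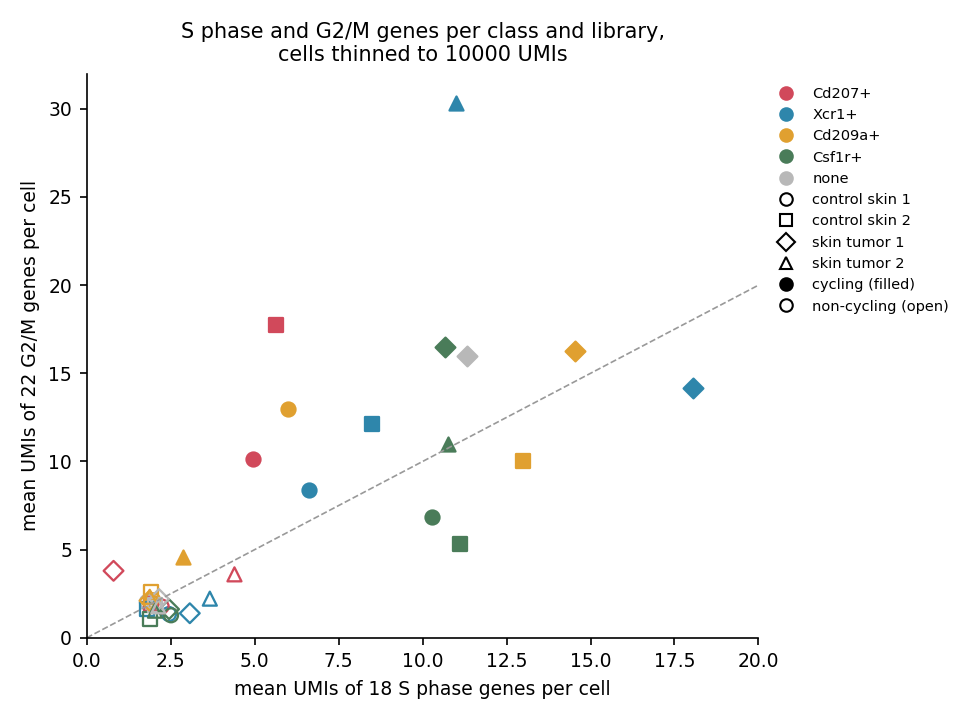
Mean UMIs of the 18 S phase genes (x axis) and of the 22 G2/M genes (y axis) per cell, for each class and library with at least 5 cells, after thinning to 10000 UMIs. Filled symbols are cycling and open symbols non-cycling cells, the dashed line marks equal values, and the filled red Cd207+ symbols of control skin lie above it while the filled green Csf1r+ ones of control skin lie below.

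Gated immune cells of skin tumor and of control skin differed over a wide front. UMIs were summed over the gated cells of each library and tested with edgeR's quasi-likelihood test, adjusted by the Benjamini-Hochberg method over all genes tested, at a threshold of 0.05. Of 10044 genes, 639 (6.36%) rose and 726 (7.23%) fell in skin tumor. The calls depended on the control libraries: 176 genes were called without control skin 1, of which 167 were among these 1365, and 378 without control skin 2, of which 340 were. Since the makeup of the gate differed, the test was repeated without the Cd207+ class, an alternative chosen after the data had been seen. This left 45 genes that rose and 37 that fell of 9045 (0.498% and 0.409%). In the sentences that follow, levels are CPM scaled by edgeR's TMM factors, and each log2 fold change is tumor over control ± its standard error.

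Langerhans cell genes fell, 5 of the 6 on the list. Cd207 stood at 2216 and 1904 CPM in control skin and at 2.02 and 0 CPM in skin tumor (log2 fold change -10.35 ± 0.58, adjusted p = 0.000832). Cldn1 went from 608 and 509 to 3.25 and 4.14 CPM (-7.30 ± 0.28, adjusted p = 0.000258), and Epcam from 371 and 293 to 1.01 and 1.04 CPM. Mfge8, which bridges dying cells to phagocytes, and Cdh1 also fell, and the list's median was -7.02 beside 0.02 over all genes tested. The Cd207+ class was nearly absent in skin tumor. Without that class Cd207 still fell, from 431 and 373 to 1.22 and 0 CPM, as did Cldn1, Mfge8 and Cdh1. The Xcr1+ class, read before Cd207, stayed in that test, and 10 of its 16 members in control skin reached the Cd207 minimum. The test therefore did not leave out all cells with Cd207.

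Macrophage genes rose, 7 of the 12 on the list and none fell. The complement gene C1qa went from 372 and 317 to 2030 and 1671 CPM (2.43 ± 0.22, adjusted p = 0.00229), with C1qb and C1qc alike. Fcgr1 (an Fc receptor), Mertk (a receptor for dying cells) and Itgam (CD11b) rose by 2.85, 3.19 and 1.98 on the log2 scale. The list's median was 1.89. Csf1r itself stood at 229 and 306 against 247 and 273 CPM (-0.04 ± 0.21, adjusted p = 0.921), and Adgre1 (F4/80) at 138 and 157 against 242 and 193 CPM (adjusted p = 0.123). Of the genes linked to tumor macrophages, Trem2, Cx3cr1 and Apoe rose (3 of 11), and of those of resident macrophages Cd163, a scavenger receptor, fell from 14.6 and 20.01 to 1.46 and 2.59 CPM (1 of 9). Without the Cd207+ class 2 of the 12 rose, C1qa among them (from 306 and 496 to 1998 and 1645 CPM), with 11 of the 12 estimates positive and a median of 1.40. Of the 11 tumor macrophage genes 0 rose then, with Trem2, Cx3cr1 and Apoe at adjusted p = 0.321, 0.0564 and 0.0525.

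Among dendritic cell genes the lists were split. Batf3 and Tlr3, a transcription factor and an RNA sensor of type 1 dendritic cells, rose from 20.02 and 27.3 to 61.9 and 89.0 CPM and from 0.607 and 3.64 to 26.2 and 18.1 CPM, as did Wdfy4 and Naaa, while Itgae (CD103) fell (4 and 1 of 9). None of these 5 was called without the Cd207+ class, where the list's median was -0.05. Xcr1 stood at 35.8 and 23.2 against 46.1 and 25.4 CPM (adjusted p = 0.609) and Cd209a at 109 and 66.4 against 30.6 and 67.3 CPM (adjusted p = 0.213). Cd209d, a neighbour of Cd209a in the lectin cluster, fell in both tests, here from 38.8 and 22.3 to 2.69 and 5.18 CPM. Cd274 (PD-L1), from the list of mature dendritic cells, rose from 154 and 136 to 415 and 419 CPM (1.53 ± 0.18, adjusted p = 0.00557), and missed the threshold without the Cd207+ class (adjusted p = 0.0871).

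Interferon-induced genes rose together in the gated immune cells of skin tumor: 18 of 22 on the list rose and none fell, and the list's median was 2.65 beside 0.02 over all genes. The guanosine triphosphatase gene Iigp1, which acts against intracellular pathogens, stood at 0 and 1.82 CPM in control skin and at 128 and 157 CPM in skin tumor (7.06 ± 0.51, adjusted p = 0.00158). Irf7, a master regulator of type I interferon genes, was at 7.88 and 23.7 against 184 and 142 CPM. Gbp2, Gbp3, Gbp4, Gbp5 and Gbp7 (guanylate-binding proteins) all rose, with Gbp5 at 1.82 and 2.73 against 38.4 and 54.3 CPM. For each of these genes both tumor libraries stood above both control libraries. Stat2, Ifit1, Cxcl9 and Rsad2 did not pass. Of these, Cxcl9 and Rsad2 (adjusted p = 0.272 and 0.383) had control libraries far apart, with Cxcl9 at 262 and 5.91 CPM and Rsad2 at 10.3 and 208 CPM. Without the Cd207+ class 4 of 22 rose, Gbp2, Gbp3 and Iigp1 among them, and the median was 2.33.

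The same list was followed through the classes as summed CPM. In Xcr1+ members it was 538 and 596 in control skin and 3075 and 3583 in skin tumor, and in Cd209a+ members 695 and 714 against 1712 and 2079. In Csf1r+ members it was 366 and 3104 against 4417 and 4128, and the 9 cells of control skin 2 owed 1406 CPM of their sum to Rsad2. All non-cycling cells gave 607 and 712 against 4773 and 3436, so the difference between the tissues was also there outside the gate. By class, the sums of non-cycling Xcr1+ cells were 1687 and 704 in control skin and 4580 and 5315 in skin tumor, above the cycling Xcr1+ cells of each of the 4 libraries. Cxcl9 held 1129, 145, 1684 and 2490 CPM of these sums. Without it, as chosen after the data had been seen, the sums were 559, 559, 2896 and 2825 in non-cycling and 301, 561, 2188 and 2822 in cycling Xcr1+ cells, so that the sums of control skin 2 and skin tumor 2 were nearly equal between the states. Those of non-cycling Cd209a+ cells were 480 and 721 against 4080 and 3554, above the cycling cells in both tumor libraries and in control skin 2, and below them in control skin 1. In non-cycling Csf1r+ cells they were 1176 and 1184 against 4662 and 3457, above the cycling cells in control skin 1 and skin tumor 1 and below them in the other two libraries.

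**Figure D4:**
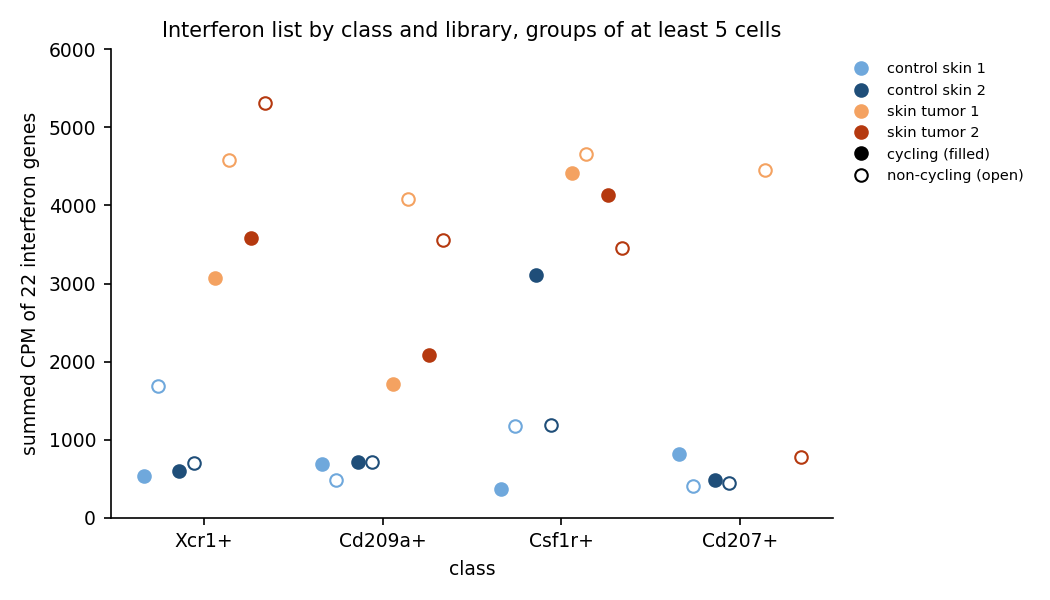
Summed CPM of the 22 interferon genes (y axis) by class (x axis) and library, for groups of at least 5 cells, with cycling cells filled and non-cycling cells open. In Xcr1+ and Cd209a+ cells both tumor libraries lie above both control libraries, and in Csf1r+ cycling cells control skin 2 lies at 3104, near the tumor libraries.

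Genes of the cycle itself rose about as often as other genes: 4 of 54 tested (7.41%) rose, beside 6.36% of all genes, and 0 fell. None of the 22 G2/M genes passed (12 estimates positive and 10 negative, median 0.09). Without the Cd207+ class 17 of the 22 were positive, with a median of 0.57, and in Csf1r+ members 20 of 20 tested were, with a median of 1.00. All 17 of the S phase genes tested had positive estimates, with a median of 0.57 (without the Cd207+ class 13 of 17, median 0.16, and in Csf1r+ members 9 of 18, median -0.06), and Rrm2 and Slbp, the histone messenger-binding protein, rose (1.03 ± 0.20 and 0.86 ± 0.18, adjusted p = 0.0207 and 0.0295). Among 15 G1 genes, cyclin D2 (Ccnd2) rose from 3.64 and 8.64 to 83.1 and 67.8 CPM (3.57 ± 0.36, adjusted p = 0.00299) and cyclin E1 (Ccne1) from 1.82 and 4.09 to 20.4 and 9.32 CPM (2.33 ± 0.58, adjusted p = 0.048). Both tumor libraries exceeded both control libraries for each. Cyclin D1 (Ccnd1) stood at 78.2 and 112 against 187 and 146 CPM (adjusted p = 0.0802) and Ccnd3 at 60.7 and 83.2 against 58.3 and 71.9 CPM (adjusted p = 0.687). Ccnd2 also rose without the Cd207+ class (3.12 ± 0.34, adjusted p = 0.0292), whereas Ccne1, Rrm2 and Slbp then missed the threshold (adjusted p = 0.237, 0.359 and 0.235). By class, Ccnd2 was at 0 and 5.45 against 80.3 and 82.9 CPM in Xcr1+ members and at 16.9 and 8.03 against 80.0 and 59.6 CPM in Csf1r+ members, on the unscaled scale. Of 11 growth factor receptor and ligand genes, Csf2rb, the shared beta chain of the GM-CSF, IL-3 and IL-5 receptors, fell from 735 and 698 to 269 and 363 CPM (-1.18 ± 0.22, adjusted p = 0.018). It missed the threshold without the Cd207+ class (adjusted p = 0.167). Flt3 and Kit, receptors of dendritic cell and other precursors, gave adjusted p = 0.637 and 0.332.

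None of the 10 MHC class II genes passed, though H2-Aa stood at 8382 and 6842 CPM in control skin and 4742 and 4982 CPM in skin tumor (adjusted p = 0.0934), and 8 of the 10 estimates were negative (median -0.61). These genes share the H2-Ab1 threshold of the gate. None of 8 glycolysis genes passed, and 1 of 8 genes of the JAK STAT3 list did: Socs3, a feedback inhibitor, rose from 67.3 and 94.2 to 177 and 291 CPM. Without the Cd207+ class 0 of these 8 rose, so the Socs3 call was lost. Heat shock genes that also mark tissue digestion, Hspa1a and Hspa1b, rose by 2.11 and 1.83 on the log2 scale, while Fosb fell by 1.43. Hspa1a and Hspa1b also rose without the Cd207+ class, where Fosb was not called. The part of these 3 genes in the other results was not tested.

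**Figure D5:**
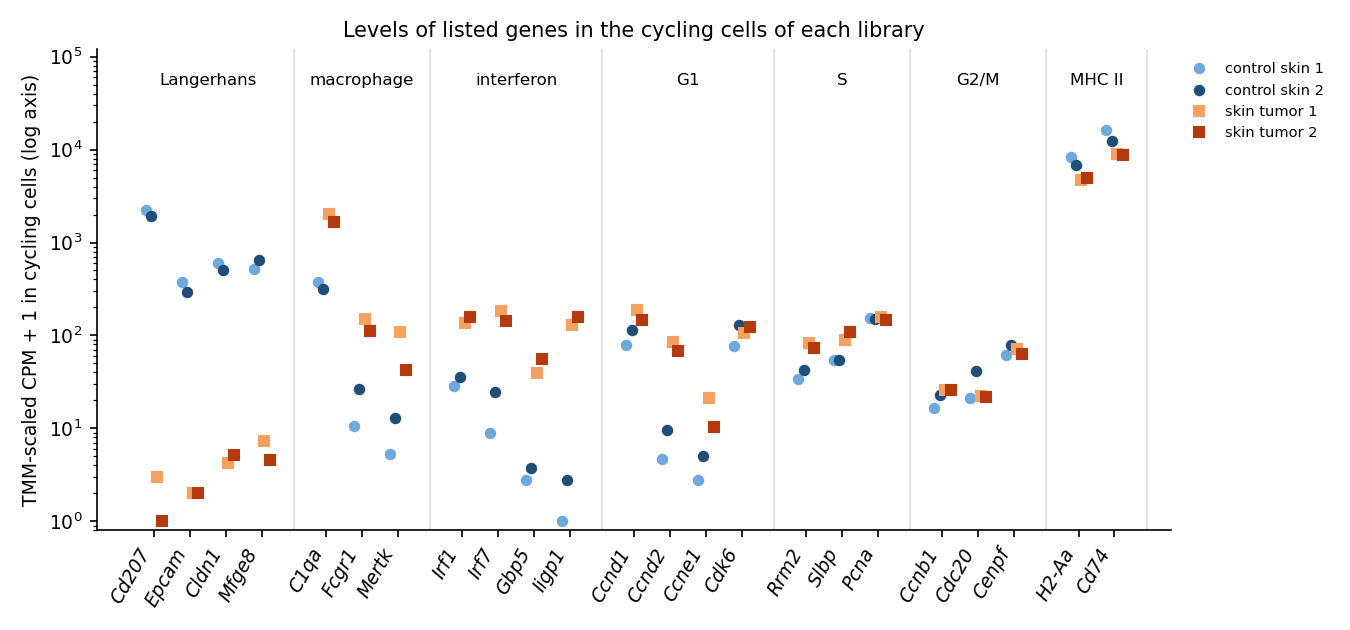
Level of listed genes in the cycling cells of each library, as TMM-scaled CPM plus 1 on a log axis, with circles for control skin and squares for skin tumor. Langerhans cell genes lie lower and macrophage and interferon genes higher in skin tumor, Ccnd2 and Ccne1 lie apart by tissue, and the G2/M genes lie close together.

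Of the 10 lowest genes by fold change, all but Cd207 were without a UMI in the gated cells of skin tumor. For these only a bound from 3 counts over the group can be given. Hapln3 (a hyaluronan link protein, 127 and 198 UMIs in control skin, chr7:79115102-79131018 in GRCm38) was at least 276-fold lower (adjusted p = 0.0564 without the Cd207+ class), Gm26812 at least 230-fold, Wnt9a (a Wnt ligand) at least 177-fold, Stxbp5l at least 163-fold and Fam189a2 at least 98.6-fold. The other 4 are genes of keratinocytes: Krt14, Krt17, Sprr1a and Calm4. Their control libraries stood apart, at 7.88 and 40.03 CPM for Krt14, 97.0 and 11.8 CPM for Krt17, 17.6 and 56.4 CPM for Sprr1a and 32.1 and 68.2 CPM for Calm4. The bound therefore depended on the control library: from control skin 1 and control skin 2 alone it was at least 25.2-fold and 133-fold lower for Krt14, 310-fold and 39.3-fold for Krt17, 56.2-fold and 188-fold for Sprr1a and 102.7-fold and 227-fold for Calm4. Krt17 missed the threshold without control skin 1 (edgeR, adjusted p = 0.133) and Sprr1a without control skin 2 (adjusted p = 0.0758), where Krt14 did not pass the filter on low counts. They go with the keratinocyte marker sums given above. The 10 highest genes held further interferon-induced genes, Ifi44 (1 UMI in control skin and 377 in skin tumor, a ratio of 148 with a 95% counting interval of 26.4 to 5857), Ifit2 (0.607 and 5.46 against 198 and 86.9 CPM) and Gm4951 (0 and 2.73 against 102.9 and 90.6 CPM). The others were Cd38 (an enzyme that consumes NAD, 1.21 and 3.64 against 97.2 and 93.7 CPM), Acp5 (an acid phosphatase, 1.21 and 3.18 against 122 and 62.6 CPM), Spon1 (1.82 and 1.36 against 144 and 62.6 CPM), Iigp1, and 3 genes with 1 or 2 control UMIs. These were Asb2 (ratio 105, 18.7 to 4168), Ly6i (54.5, 9.63 to 2169) and Cped1 (31.8, 8.66 to 265).

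Without the Cd207+ class, the genes that rose most again included Iigp1, Spon1, Ifi44, Gm4951, Acp5 and Cd38. Vcam1, an adhesion molecule, stood at 7.44 and 14.9 against 231 and 243 CPM (4.38 ± 0.33, adjusted p = 0.0287), and the interferon-induced Ifitm1 rose by 4.45. Slfn1, with 3 control UMIs, stood at 1.24 and 2.13 against 43.5 and 29.03 CPM. Tnfsf15, a tumor necrosis factor family ligand, had no control UMI and stood at 23.7 and 18.8 CPM in skin tumor. On the other side Cxcr6, a chemokine receptor, went from 47.1 and 40.5 to 0.775 and 0 CPM. Cacnb2 (a calcium channel subunit), Mt3 (a metallothionein), Tmeff2 and Cd163 fell too.

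Within Csf1r+ members alone, 0 of 7500 genes rose (0%) and 0 fell (0%) by edgeR, while 758 had an unadjusted p under 0.05 and DESeq2 called 70. The control libraries held 7 and 9 such cells. By the marker lists, 0 of 48 and 7 of 61 gated cells of control skin 1 and 2 fell in the macrophage class. The part of cell type in the tests on Csf1r+ cells was not tested. C1qa stood at 415 and 1665 against 2740 and 2084 CPM (adjusted p = 0.602). Whether the difference between tissues was itself different in cycling and non-cycling Csf1r+ cells was tested by an interaction with library as a term. Of 9991 genes, 2 (0.02%) had a higher tumor effect in cycling cells and 0 (0%) a lower one, with 653 at an unadjusted p under 0.05 and 8 calls by DESeq2. They were Thbs1 (thrombospondin 1, 3.99 ± 0.44, adjusted p = 0.0299) and the chemokine gene Cxcl9 (adjusted p = 0.0299). Cxcl9 had no UMI in the cycling Csf1r+ cells of either control library, and its call was lost without control skin 1 (adjusted p = 0.722). Thbs1 had 2 UMIs in each control library of cycling cells, at 6.89 and 8.12 CPM against 281 and 367 CPM in the non-cycling ones. In skin tumor, cycling Csf1r+ cells held 225 and 572 CPM against 576 and 1633 CPM in the non-cycling ones.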

How the data were processed

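The authors counted UMIs with Cell Ranger on mm10 (version 7.1.0 per the submitters' processing notes, 7.0.1 per the file headers) and deposited raw counts, as 1 gene-by-cell matrix for each of the 4 libraries. How intronic reads were treated is not given in the sources used here. Coordinates are from GENCODE annotation of GRCm38, in which 30934 of the 31053 gene identifiers were found.

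The gate, the classes, the gene lists and the tests were chosen with earlier results of these data known. Doublets were scored against simulated pairs of cells (2 per cell, 30 components, the top 1% per 1000 cells called) and removed only in an alternative. Shares are means ± SD over libraries, with exact two-sided permutation tests and 95% Clopper-Pearson intervals, which cover counting error only, as does the floor of 3 counts.

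For gene tests, each library's gated cells were added up and compared by edgeR 4.0.16 (R 4.3.3, TMM, filterByExpr, quasi-likelihood test, Benjamini-Hochberg over all genes tested, threshold 0.05). DESeq2 1.42.0 was an alternative, and genes that chose the cells were left out of counts of calls. The procedure was tested on simulated data. Besides the gene lists, named genes are the 10 highest and 10 lowest log2 fold changes among calls with both tumors on one side of both controls and a mean of at least 20 CPM in the higher group. Variable genes of antigen receptors, mitochondrial and ribosomal genes and those linked to sex were not named. Other settings tried were RLE factors, no filter, other gate and lineage minimums, doublet removal, thinned cells and leaving out each library. Results for some genes and 1 allele are not reported here.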

Additional observations from a re-analysis of the deposited data

Results flagged for a closer look

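By the edgeR interaction, the difference between tissues was called different in cycling and non-cycling Csf1r+ cells for 2 genes. The cycling Csf1r+ cells of control skin 1 and 2 numbered 7 and 9. By the marker lists, 0 of 48 and 7 of 61 gated cells there fell in the macrophage class. The part of cell type in these calls was not tested. Thbs1 had an interaction of 3.99 ± 0.44 on the log2 scale (edgeR, adjusted p = 0.0299), from 2 UMIs in each control library of cycling cells. Cxcl9 had a fitted interaction of 13.13, which is no bound, since both control libraries of cycling cells held 0 UMIs while the non-cycling ones stood at 339 and 2.43 CPM. Without control skin 1 the interaction of Cxcl9 missed the threshold (adjusted p = 0.722).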

How the results depend on the processing

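Of 164 repeats of 14 values under other settings, 118 stayed within the spread between libraries or, for a count of calls, within 1.5 times. Differences below are skin tumor minus control skin, in percentage points. With no limit on Cd3, run after the data had been seen, the gate's share of filtered cells differed by 0.753 and that of MHC II-high cells by -3.13. With a minimum of 10 UMIs for Top2a plus Mki67 the makeup differed by 3.34 (Xcr1+), -6.24 (Cd209a+) and 56.1 (Csf1r+) and the cycling share of Cd209a+ cells by 0.137, and with a minimum of 3 the cycling share of Xcr1+ cells differed by 23.1. Thinned to 5000 UMIs, that of Cd209a+ cells differed by 3.54. With lineage minimums at 1 the makeup differed by -65.8 (Cd207+), 2.55 (Cd209a+) and 59.3 (Csf1r+), and with doubled minimums by 38.2 (Csf1r+) and 18.1 (none). Reading Csf1r first gave 5.29 (Xcr1+), -8.93 (Cd207+) and 0.787 (Csf1r+). Classes by marker lists changed the makeup to 13.4 (Xcr1+) and 38.8 (Csf1r+). The same class settings were run on the cycling shares after the data had been seen. Marker lists turned the difference to -4.37 (Xcr1+) and -1.49 (Cd209a+) and moved it to -8.01 (Cd207+) and 4.45 (Csf1r+). Minimums at 1 gave 4.196 (Xcr1+), 3.62 (Cd209a+) and 1.91 (Csf1r+), doubled minimums -8.02 (Cd207+) and 6.68 (Cd209a+), and Csf1r first 6.77 (Xcr1+). Xcr1+ cells cycled more often than Csf1r+ cells in 4 of 4 libraries under all 4 settings.

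The 1365 calls over all gated cells became 2558 with no filter, 82 without the Cd207+ class (all 82 among the 1365) and 85 without the Cd207+ and Csf1r+ classes (65 of them among the 1365), the last 2 chosen after the data were seen. Leaving out 1 library gave 176 (control skin 1), 378 (control skin 2), 1491 (skin tumor 1) and 2264 (skin tumor 2). Wdfy4 turned to -0.049 without the Cd207+ class, and Ccr2 and Trem2 to -0.073 and -0.21 without both classes. The 0 calls in Csf1r+ cells became 70 by DESeq2, 302 with no filter and 1 with a minimum of 10 UMIs, and 0 to 36 without 1 library (36 without skin tumor 1). The 2 interactions became 8 by DESeq2 and 78 with no filter, and 5 to 266 without 1 library (266 without control skin 2). A lone library was assumed to vary like the other group. The causes were not tested.

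Same-numbered libraries did not deviate together (correlation over genes 0.0272 in all gated cells and -0.0368 in Csf1r+ cells). The labels give only a replicate number, and this correlation cannot show whether same-numbered samples were handled together. With the replicate block the 1365 calls became 1213 and the 0 calls in Csf1r+ cells stayed at 0. With 2 libraries a group, the smallest exact p for a share is 0.333.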
